A study of Rattus norvegicus with 10 samples.

Results

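Quiescent collateral vessel tissue of the rat hind limb was described by its 5 control RNAs, which make up 5 of the 10 RNAs of the study. They were chosen by the sample titles, and every array channel that held one of them was used, 10 of the 20 channels. Male rats of the strain given as Spraque-Dawley had the femoral artery of 1 leg ligated and an arteriovenous shunt placed, which raises shear stress in the collateral arteries. The other leg had a sham operation and gave the control tissue, so each control leg came from an animal that also carried a shunt in its other leg, and no tissue of an unoperated animal was analysed here. The sample names differ between the 5 control RNAs, called control 1 to control 5 here, and the labels call them biological replicates. No source used here gives the age or the time after the operation. Total RNA was labelled directly with a red dye, AF665, or a green dye, AF546, and hybridised in pairs to arrays that carry miRNA probes of several species. Each control RNA was read once in each dye, on 2 different arrays, and the 10 readings lie on 6 arrays, of which 4 held control RNA only. The members described are the 237 probes with a rat miRNA name among 1107 probes, each spotted 3 times.

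MicroRNAs are short RNAs that guide Argonaute proteins to messenger RNAs, mainly through the bases near their 5′ end called the seed, and lower the stability or translation of those messages. In the vessel wall, miR-143 and miR-145 are known as the miRNAs of contractile smooth muscle, miR-126 as that of endothelium, and the let-7 and miR-125 families as abundant in many differentiated tissues. Collateral arteries are small vessels that join larger arteries and stay quiescent until shear stress on their wall increases.

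Of the 237 rat names, 110 were matched to a mature sequence in the RefSeq table of build GRCr8, and so were 49 of the 61 miRNAs (80.3%) that were above background in at least 5 of the 10 control readings. The old array names carry no arm, so the arm named was the one the name stood for historically. Sequences below run 5′ to 3′, with bases 2 to 8, the seed, in capitals. The let-7 family is shown first because it held 7 of the 16 brightest probes; its 8 matched members share the seed and differ only outside it.
let-7c: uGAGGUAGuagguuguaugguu
let-7b: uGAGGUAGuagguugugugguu
let-7a: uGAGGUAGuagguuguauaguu
let-7f: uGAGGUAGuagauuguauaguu
let-7e: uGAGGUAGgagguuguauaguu
let-7d: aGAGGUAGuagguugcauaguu
let-7i: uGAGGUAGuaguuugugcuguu
miR-98: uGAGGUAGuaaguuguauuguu

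Counted from 1 at the 5′ end, let-7b differed from let-7c by A17G and let-7a by G19A. The change from let-7c to let-7f was G12A with G19A, and that to let-7e U9G with G19A. Probes to members that differ at so few positions can bind each other's RNA, so their separate levels are uncertain. The let-7c sequence is encoded at chr7:118683636-118683657 (plus strand, gene Mirlet7c2) next to let-7b at chr7:118684044-118684065 (Mirlet7b), and again at chr11:29688127-29688148 (Mirlet7c1); an array reads the sum of both copies.

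The next set is shown because these miRNAs were, with let-7a to let-7f and miR-126, among the 20 brightest rat probes in each of the 5 RNAs. It holds 1 pair with a common seed, miR-23a and miR-23b, which differ by U19A.
miR-125b: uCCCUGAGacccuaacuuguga
miR-143: uGAGAUGAagcacuguagcuca
miR-24: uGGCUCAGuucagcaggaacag
miR-26a: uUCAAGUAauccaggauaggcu
miR-23a: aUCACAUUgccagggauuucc
miR-23b: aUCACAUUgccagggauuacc

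The last set is shown because its miRNAs carry the spread between control RNAs, between the 2 dyes or between arrays described further on.
miR-146: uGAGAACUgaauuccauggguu
miR-26b: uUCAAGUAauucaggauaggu
miR-20a*: aCUGCAUUacgagcacuuaca
miR-148b: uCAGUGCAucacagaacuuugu
miR-210: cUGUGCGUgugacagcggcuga
miR-206: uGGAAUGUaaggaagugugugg
miR-1: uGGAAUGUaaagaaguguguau

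Before the results, the limits that all of them share are given. Signals of different probes depend on labelling and hybridisation as well as on the amount of RNA, so each rank below is a rank of signal and not of molecules. Control 4 was the highest of the 5 RNAs for 23 of the 61 miRNAs above background in at least 5 readings and the lowest for 8. Control 2 was the highest for 15, control 5 for 11, control 1 for 7 and control 3 for 5. The readings of control 4 helped to choose the 61, so these counts are no independent evidence that it stands apart. The 2 readings of control 4 were also the brightest for let-7c, with a net signal (foreground minus local background, scanner units) of 5783 in AF665 and 5800 in AF546. Control 1 had 2286 in AF665 and 3546 in AF546, control 2 had 305 and 534, control 3 had 664 and 484, and control 5 had 656 and 592, in the same order of dyes. The median net signal of the 61 miRNAs varied less, in AF665 from 18.7 in control 2 to 84.7 in control 4. The let-7c gaps were thus wider than those in overall brightness, and the normalization narrowed both. In the authors' deposited table, by a test that is not stated, let-7c had p under 0.05 in 5 pairs of control RNAs. The F test between RNAs described further on did not call let-7c (adjusted p = 0.455, limma). With lighter normalization it did. let-7c was among the 42 called when arrays were centred on their median without loess, and among the 47 called without between-array normalization. Whether let-7c differed between these RNAs without any normalization was not tested. No spot pixel was at the scanner limit (0% saturated on these arrays), and precision is limited by the number of arrays.

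Detection was partial in quiescent collateral tissue. A probe counted as above background in a reading if 2 or 3 of its spots lay over the median of the local background by more than 2 of its SDs. By that rule 60.5 ± 19.0 rat miRNAs were above background per control RNA (SD, n = 5, mean of the 2 readings). The AF665 reading gave 58, 37, 75, 83 and 55 rat miRNAs in control 1 to control 5. In AF546 the same RNAs gave 84, 36, 51, 86 and 40. Control 4 gave the highest count in both dyes and control 2 the lowest, and the AF546 count of control 1 was close to that of control 4. The means were 61.6 ± 18 in AF665 and 59.4 ± 24.0 in AF546 (SD, n = 5 each), a difference of 2.2. An exact two-sided permutation test that exchanged the 2 readings within each RNA gave p = 0.9375, with more miRNAs in AF665 in 3 of 5 RNAs; the smallest p such a design allows is 0.0625.

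**Figure D1:**
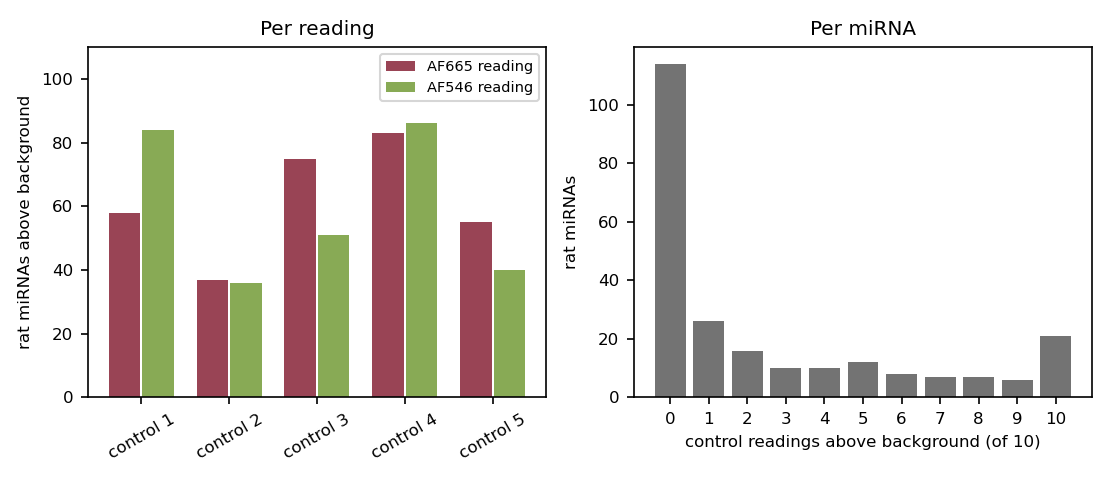
Left: number of the 237 rat miRNA probes above background in the AF665 and the AF546 reading of each control RNA (bars, from 36 to 86). Right: number of rat miRNAs by how many of the 10 control readings they were above background in; 114 were above it in none and 21 in all 10.

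Over the 10 readings, 61 of the 237 rat miRNAs (25.7%) were above background in at least 5, against 13.3% of all 1107 probes. In all 10 readings 21 rat miRNAs (8.86%) were above background, against 4.79% of all probes. These 21 were let-7a, let-7b, let-7c, let-7d, let-7e, let-7f, let-7i, miR-125b, miR-143, miR-24, miR-26a, miR-297, miR-23a, miR-23b, miR-126, miR-206, miR-195, miR-30d, miR-29a, miR-122a and miR-150. Of the rest, 114 (48.1%) were not well above background in any control reading, against 68.9% of the 870 other probes, and 62 were above it in 1 to 4. Without control 4, 52 rat miRNAs were above background in at least 4 of the 8 readings left, and 21 in all of them.

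The brightest signals came from 1 family. The 8 let-7 probes, counting miR-98, made up 37.9 ± 15.7% of the summed net signal of all rat probes per RNA (SD, n = 5). That share ran from 19.2% in the AF546 reading of control 3 to 62.7% in the AF665 reading of control 4. The 10 brightest rat probes of a reading together held 48.5 ± 15.1% of the rat signal (SD, n = 5). let-7c, a member of the family of heterochronic miRNAs that mark differentiated cells, was the brightest rat probe in 8 of the 10 readings. let-7b was brightest in the other two, the AF665 reading of control 3 and the AF546 reading of control 4.

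On the normalized log2 intensity scale, the mean of the 2 readings of let-7c was 10.88, 11.12, 10.20, 10.96 and 10.90 in control 1 to control 5. Control 3 read lowest, with 10.69 in AF665 and 9.71 in AF546. let-7b read 10.08, 10.30, 10.25, 10.79 and 9.67 in the same RNAs. let-7c was thus the brighter in 4 of 5 RNAs, and let-7b in control 3. The mean difference of 0.59 between them was close to its SD of 0.52 (log2, n = 5). let-7a averaged 10.01 ± 0.29 (SD, n = 5), and exceeded miR-125b, the fourth in order, in 5 of 5 RNAs and 10 of 10 readings, by 1.14 ± 0.45 on average. let-7f, let-7e and let-7d lay lower, at 8.84 ± 0.40, 8.76 ± 0.52 and 8.53 ± 0.52, and let-7i at 7.56 ± 0.53 (log2, SD, n = 5). miR-98, the family member with a distinct name, was above background in 3 of 10 readings and averaged 6.16 ± 0.24.

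Behind let-7a the order was loose. miR-125b, a homologue of the worm lin-4 miRNA that is abundant in mesenchymal and neural tissue, read 9.49, 9.08, 8.73, 8.36 and 8.68 in control 1 to control 5. It was the fourth brightest in the mean, yet control 4 read lower than the other RNAs for it, the opposite of let-7d, let-7e and let-7f. miR-143, the smooth muscle miRNA, read 8.49, 8.39, 8.11, 9.47 and 8.86, with control 4 the highest. Of the 25 steps between neighbours in the order of the 26 brightest, only that from let-7a to miR-125b had the upper member brighter in all 5 RNAs. At each other step the lower member was the brighter in at least 1 RNA.

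**Figure D2:**
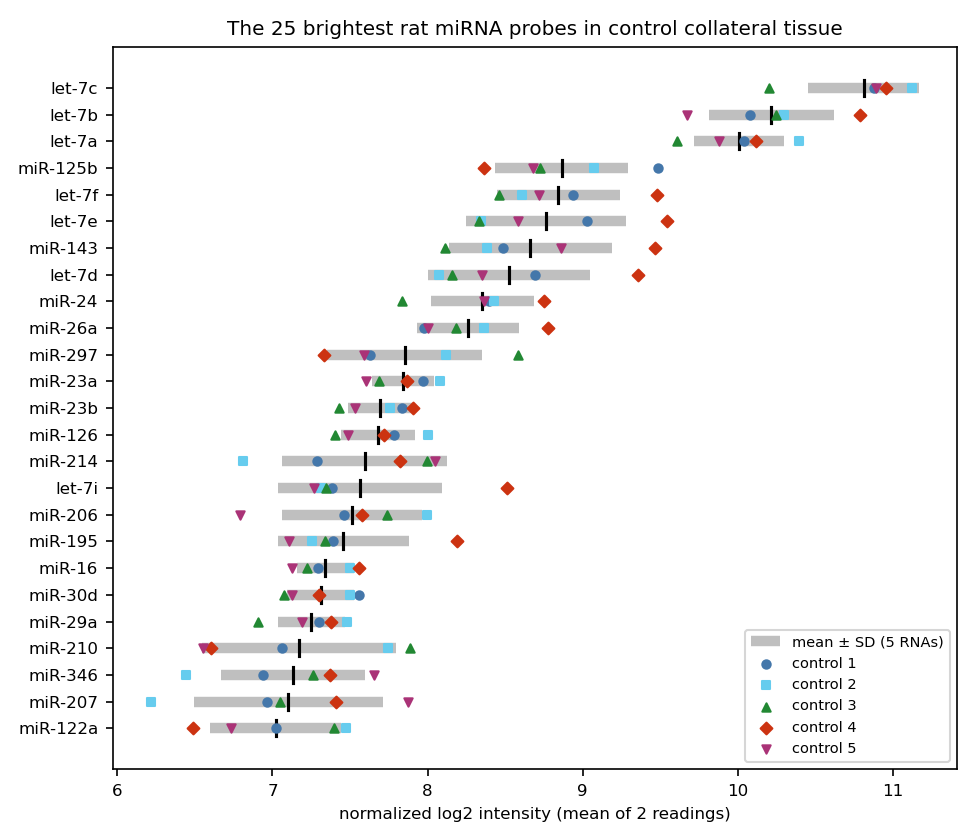
Normalized log2 intensity of the 25 brightest rat miRNA probes in the 5 control RNAs. Points are RNAs (mean of 2 readings), black bars the mean and grey bands the SD (n = 5); let-7c, let-7b and let-7a lie above the rest, and neighbours further down overlap.

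After miR-24 at 8.35 ± 0.33 and miR-26a at 8.26 ± 0.33 came a run of probes between 7.85 and 7.02. In falling order these were miR-297, miR-23a, miR-23b, miR-126, miR-214, let-7i, miR-206, miR-195, miR-16, miR-30d, miR-29a, miR-210, miR-346, miR-207 and miR-122a. Across RNAs 13 miRNAs were among the 20 brightest in every one, and 30 in at least 1. Rank agreement between RNAs over the 61 miRNAs ran from a Spearman correlation of 0.598 for control 4 with control 2 to 0.891 for control 2 with control 1, as a description over miRNAs that share arrays and dyes.

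The authors' deposited table gives, for every RNA, a rank of each probe, by a rule that is not stated. Rat miRNAs ordered by the median of those 5 ranks had the same 10 at the top as the signal used here, and 19 of the top 20 were shared. The Spearman correlation of both orders was 0.947 over the 61 miRNAs and 0.908 over all 237, across miRNAs measured in the same scans. let-7c was ranked first among rat miRNAs in each of the 5 control RNAs in the authors' deposited table, while miR-125b was ranked between 4 and 10. miR-210, the miRNA known to rise in hypoxia, stood at 22 by the signal used here and at 45 by the authors' deposited ranks. miR-207 stood at 24 here and at 39.5 in the authors' deposited ranks.

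**Figure D3:**
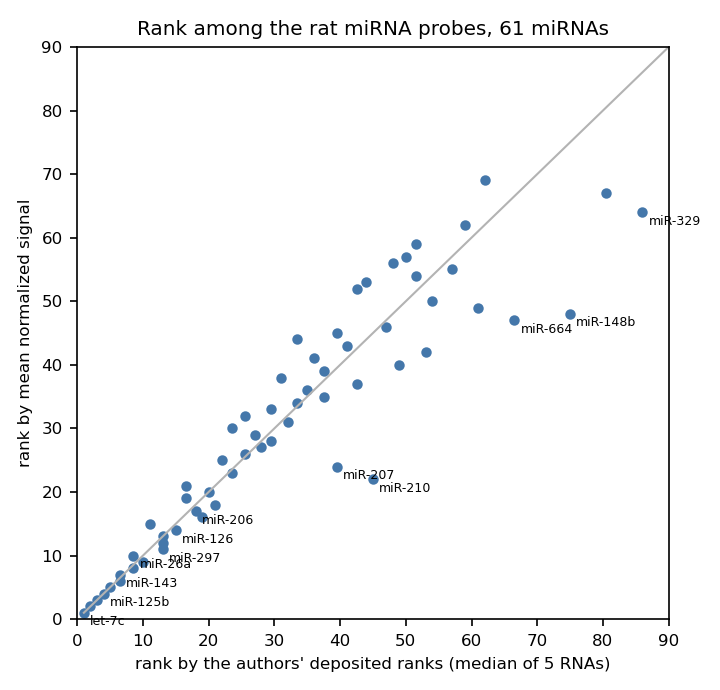
Rank among the 237 rat miRNA probes by mean normalized signal (vertical) against the rank by the authors' deposited ranks (horizontal), for the 61 miRNAs above background in at least 5 of 10 control readings. The line marks equal ranks; the first 3 ranks coincide, and miR-148b, miR-210, miR-329, miR-664 and miR-207 lie farthest from it.

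Smooth muscle and vessel wall lists were detected in full. Both smooth muscle miRNAs, miR-143 and miR-145, were above background in at least 5 readings; 25.7% of rat miRNAs were. miR-145, which shares a transcript with miR-143, read 7.12, 6.94, 6.61, 6.77 and 7.03 in control 1 to control 5, so control 4 was not the highest for it as it was for miR-143. On chromosome 18 of GRCr8 (minus strand) miR-145 lies at chr18:57370033-57370055 and miR-143 at chr18:57371373-57371394. In bulk tissue, fewer cells of a type and less RNA per cell cannot be told apart.

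All 5 members of the miR-23, miR-24 and miR-27 clusters, which are expressed in vessel wall cells, were above background in at least 5 readings, and miR-24, miR-23a and miR-23b in all 10. The cluster on chromosome 17 spans chr17:1818672-1819425 (minus strand) with miR-24, miR-27b and miR-23b. Its counterpart on chromosome 19 spans chr19:40859481-40859798 (minus strand) with miR-24, miR-27a and miR-23a. miR-23a averaged 7.84 ± 0.20 and miR-23b 7.69 ± 0.20, while miR-27b averaged 6.92 ± 0.16 and miR-27a 6.60 ± 0.16 (log2, SD, n = 5). miR-23a read 7.97, 8.08, 7.69, 7.87 and 7.60 in control 1 to control 5, the narrowest spread among the 21 miRNAs detected in every reading.

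Endothelial miR-126, which is encoded in an intron of Egfl7, read 7.78, 8.0, 7.41, 7.72 and 7.49 in control 1 to control 5. Its values spanned 0.59 on the log2 scale, and it was above background in all 10 readings. The passenger strand miR-126* was not well above background in any reading. Of the 6 mesenchymal and fibroblast probes, miR-214 and miR-29a were above background in at least 5 readings, miR-199a in 4, and miR-29b, miR-29c and miR-21 in none. miR-214 read 7.29, 6.81, 8.0, 7.82 and 8.05, lowest in control 2, where it was above background in 1 of 2 readings.

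The list of smooth muscle injury and proliferation had 3 probes under its listed names, and none was above background in at least 5 readings. miR-146a was also listed, and the array's miR-146, matched to the miR-146a sequence, was above background in 5 readings. miR-221 was above it in 4 of 10, with a level of 6.36 ± 0.06 (log2, SD, n = 5). miR-222 and miR-21, known to rise in injured arteries, were not well above background in any of the 10 control readings, which gives only an upper bound on their signal.

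Some probes on the marker lists of other tissues also gave signal above background. For miR-206 and miR-122a that signal differed between the 2 readings of control 3, which differ in array and in dye, as given further on. Binding of other RNAs to these probes was not tested. Of the 6 striated muscle probes, miR-206 was above background in all 10 readings, miR-133a and miR-133b in 6 each, miR-1 in 4, miR-499 in 1 and the heart miRNA miR-208 in none. miR-206, a skeletal muscle miRNA, averaged 7.51 ± 0.45 (log2, SD, n = 5). miR-1, which shares the seed of miR-206 and differs from it by G11A, G21A and G22U, was above background only in both readings of control 1 and of control 4. Its level was 7.41 in control 4 and 6.59 in control 1, against 6.08, 5.98 and 6.10 in control 2, control 3 and control 5. Levels of miR-133a ran only from 6.17 to 6.64 over the 5 RNAs, with control 2 the highest, so the muscle probes differed in which RNA was the highest. The part of skeletal muscle in the dissected tissue was not tested.

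Among 5 leukocyte probes, miR-150 of mature lymphocytes was above background in all 10 readings and averaged 6.80 ± 0.24, and miR-146 in 5. miR-223 and miR-142-3p, of myeloid and of all blood cells, were above background in 1 reading each, and miR-142-5p in none. Both erythroid probes, miR-451 and miR-144, were not well above background in any reading. The 7 epithelial probes gave none in at least 5 readings, with only miR-203 above background at all, in 3. Both pancreas probes and 5 of the 6 early embryo probes were not well above background in any reading. The neural list had 2 of 9 members, miR-129 and miR-338, above background in at least 5 readings. The liver list has 1 probe on the array, miR-122a, known mainly from hepatocytes, and it was above background in all 10 readings.

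Detection is given by family beside the 25.7% of rat miRNAs above background in at least 5 readings; no difference between families was tested. Of the let-7 family 7 of 8 were above background in all 10 readings. The miR-30 family had 5 of 6 probes above background in at least 5 readings, the miR-125 and miR-99/100 families 3 of 5, and the miR-15/16 family 3 of 6. The miR-30 count takes in miR-30a-3p, the other arm of miR-30a, which has another seed. Both miR-26 members and both miR-103 and miR-107 were above background in at least 5 readings too. The miR-34 family had 1 of 3 (miR-34a), the list of gut and kidney epithelium 1 of 3 (miR-194), and the miR-181 and miR-10 families had none of 3 and none of 2. The growth-associated miR-17-92 cluster with its paralogues had 3 of 10, namely miR-17, miR-106b and miR-93, and their levels ran from 6.41 to 6.45 in the mean. Not on this list was miR-20a*, the other arm of miR-20a in the cluster. It was above background in 5 readings and averaged 6.61. In the Dlk1-Dio3 cluster, an imprinted cluster active in embryonic tissue, 1 of 36 probes (miR-329) was above background in at least 5 readings, and 26 were not well above background in any.

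Members of 1 genomic cluster differed in rank. let-7e ranked 6 and miR-125a 28, while miR-99b, at chr1:67350070-67350091 (plus strand) in the same cluster, ranked 82, with 1 reading of control 5 (7.48 in AF546) far above the others though not above background. miR-195 ranked 18 and its cluster partner miR-497 ranked 83. Over the 49 miRNAs with a sequence, the Spearman correlation of the level with the GC share was -0.201 and with the length -0.116, as a description across miRNAs read on the same arrays. Uracil was the first base in 33 of these 49.

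The spread between the 5 RNAs was wide compared with the steps in the order. The SD over RNAs had a median of 0.325 on the log2 scale over the 61 miRNAs, and ran from 0.065 for miR-338 to 0.625 for miR-210. The median fell whichever RNA was left out. It was 0.224 without control 3, 0.229 without control 4 and 0.240 without control 2. Without control 5 it was 0.281, and without control 1 it was 0.291. Among the 21 miRNAs above background in every reading, the 5 with the smallest SD were miR-23a, miR-23b, miR-30d, miR-29a and miR-126 (0.198 to 0.238). The 5 with the largest were let-7i, miR-143, let-7d, let-7e and miR-297 (0.531 to 0.499). Control 4 read highest for the first 4 of these and lowest for miR-297.

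**Figure D4:**
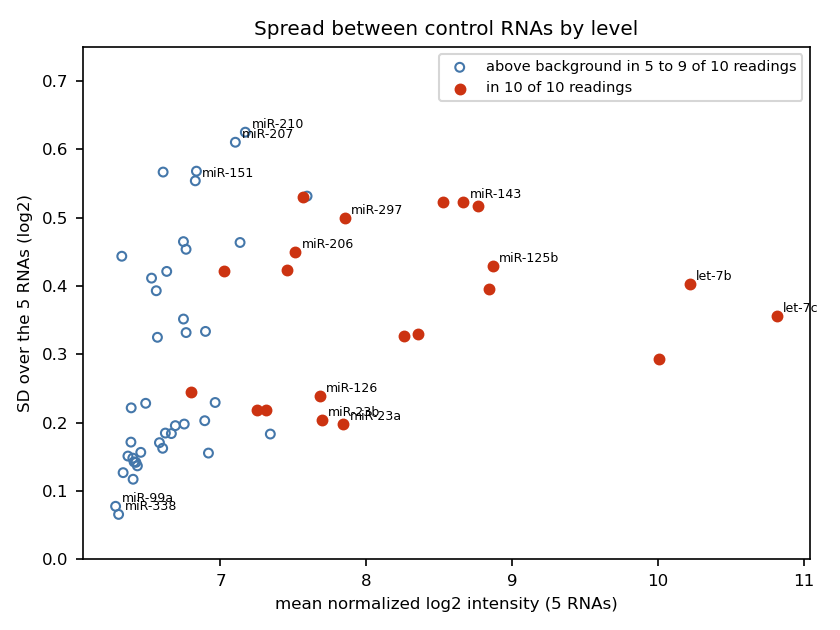
SD over the 5 control RNAs against the mean normalized log2 intensity of the 61 miRNAs above background in at least 5 readings; filled points were above it in all 10. miR-23a, miR-23b and miR-126 combine a bright signal with an SD below 0.24, and miR-210 has the largest SD at 0.625.

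The 2 readings of an RNA differed by a median of 0.193 to 0.328 (log2) per RNA over the 61 miRNAs. For some miRNAs the normalized readings were closer between the 2 RNAs of an array than between the 2 readings of an RNA. miR-210 read 8.11 in control 2 in AF665 and 8.67 in control 3 in AF546, both on array 2, whereas the other reading of control 3, on array 3, was 7.10. Its mean absolute difference was 1.00 between 2 readings of the same RNA (n = 5 RNAs) and 0.457 between 2 RNAs on the same array (n = 4 arrays). miR-206 likewise read 8.22 and 8.91 on array 2, and 6.57 in the array 3 reading of control 3. miR-122a read 7.68 and 8.24 on array 2, against 6.56 on array 3. For miR-210, miR-206 and miR-122a the level of control 3 therefore changed with the array it was read on; its 2 readings also differ in dye. Of the 61 miRNAs, 24 differed less between the 2 RNAs of an array than between the 2 readings of an RNA, among them also miR-143, let-7b, miR-207 and miR-346, and 37 differed more. The within-array normalization draws the 2 RNAs of an array together, so this count is no independent evidence of an array effect. On array 3 the net signal of let-7b was 686 in control 3 and 6083 in control 4, but its levels were 10.84 and 10.99.

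With the normalization used here, few miRNAs were called different between control RNAs, and other settings given below called more or none. limma's moderated F test over the 5 RNAs, with dye as a term and array as a random block, called 5 of the 61 miRNAs (8.2%) at an adjusted p under 0.05 by Benjamini-Hochberg, and 18 at an unadjusted p under 0.05. The called miRNAs were miR-320, miR-146, miR-26b, miR-20a* and miR-151. All 5 read highest in both readings of control 4. They had been above background in 5 or 6 readings only, including both of control 4 and both of control 1, and none of control 2. With control 4 set aside, miR-146, miR-26b and miR-20a* were above background in 3 of 8 readings and miR-320 and miR-151 in 4 of 8. All 5 thus reached 5 readings only with control 4, where they were high, so their calls are no independent evidence. miR-320 and miR-151 still met the share of 4 of 8 readings without control 4, and the other 3 did not. For miR-146, miR-26b and miR-20a*, control 2 and control 5 were never above background and their values are bounds.

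miR-320 read 6.86, 6.52, 6.28, 7.48 and 6.69 in control 1 to control 5 (adjusted p = 0.0317, limma). Control 4 lay above every other RNA, and its readings were 7.46 in AF665 and 7.50 in AF546. miR-146, an inhibitor of innate immune signalling, read 7.35 in control 4, against 6.55, 6.44, 6.25 and 6.57 in control 1, control 2, control 3 and control 5 (adjusted p = 0.0355, limma). miR-26b read 7.50 in control 4, against measured values of 6.38 to 6.89 in the other RNAs. For miR-20a*, the passenger strand of a miR-17-92 member, control 4 read 7.50 and the others 6.02 to 6.76. miR-151 read 7.73 in control 4, against 6.26 to 6.89 in the others; these 3 also had an adjusted p of 0.0355 (limma). The next in order of p were miR-194, miR-125a, let-7i, miR-107 and miR-103, with adjusted p from 0.0604 to 0.0743 (limma), not past the threshold.

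**Figure D5:**
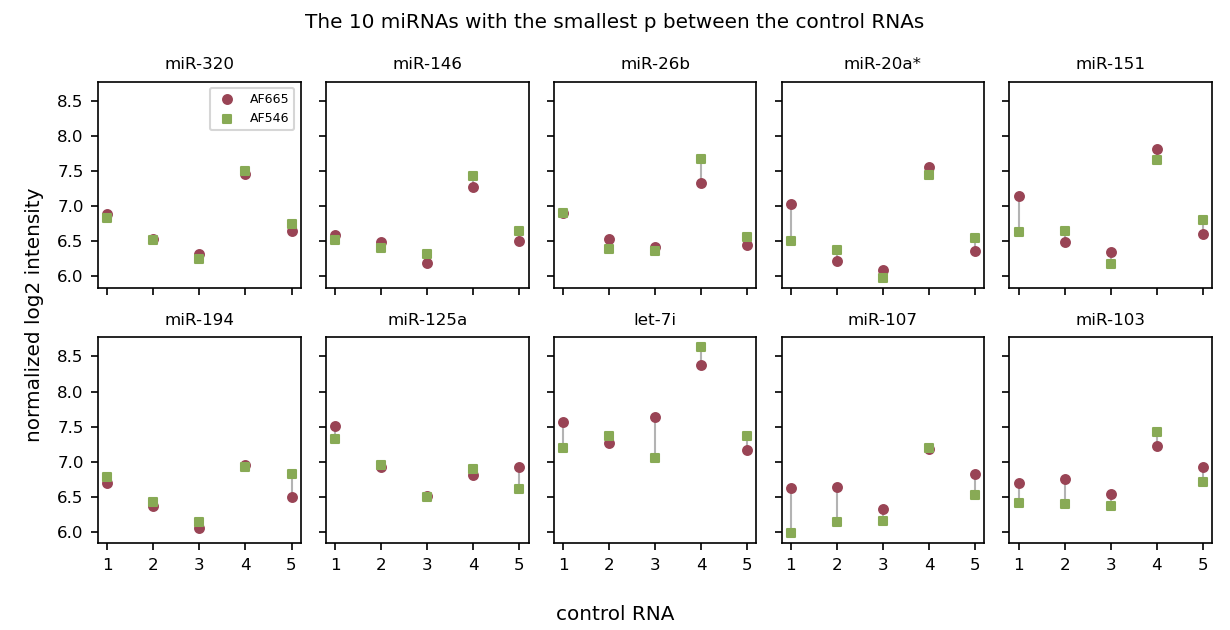
Normalized log2 intensity of the 10 miRNAs with the smallest p between control RNAs, by RNA, with the AF665 reading (circles) and the AF546 reading (squares) of each RNA joined by a line. The first 5 panels passed an adjusted p of 0.05 (limma); in each, both readings of control 4 lie above all other readings.

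These calls rest on control 4 and on the choice of probes. Without control 4 the same test called 0 of 61 (smallest adjusted p = 0.178, limma), with 12 at an unadjusted p under 0.05. It also called 0 with control 5 left out (smallest adjusted p = 0.0513). Adjusted over all 147 array probes past the same filter, 0 passed (smallest adjusted p = 0.0917). The count was 42 when arrays were centred on their median without loess, and 47 without between-array normalization, both including these 5 and let-7c. On simulated signals this test and the test of dyes were somewhat liberal, so calls near the threshold are weak. The test sets these 5 RNAs against their own reading error and compares no condition; whether control 4 differs in the animal, the dissection or the RNA was not tested. In the authors' deposited table, whose test is not stated, the rat miRNAs with p under 0.05 numbered 18 for control 4 against control 1, 26 against control 2, 15 against control 3 and 15 against control 5, all of them higher in control 4. Of all array probes 3.61%, 5.06%, 2.35% and 2.17% had p under 0.05 in these pairs. The authors' deposited table gave 2 to 7 rat miRNAs in each of the other pairs of control RNAs. Of all probes, those pairs had 1.17% (1 and 2), 0.542% (1 and 3), 0.813% (1 and 5), 1.36% (2 and 3), 1.45% (2 and 5) and 0.452% (3 and 5).

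The dye term called 1 of 61 miRNAs (1.64%), miR-148b, at an adjusted p of 0.0389 (limma), with 6 at an unadjusted p under 0.05. Its measured mean was 6.06 in AF665 and 6.92 in AF546, lower in AF665 in 5 of 5 RNAs. miR-148b was above background in the AF546 reading of all 5 RNAs and not well above background in any AF665 reading, so its AF665 level is only a bound. It passed the filter only through the dye in which it was high, so the call is not support for a difference between dyes. The call was lost with control 1, control 2, control 4 or control 5 left out in turn, and over the alternatives its adjusted p ran from 0.000343 to 0.684 (limma).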

How the data were processed

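Scanner files deposited by the authors give, for each of 3321 spots and both colours, an intensity of the spot and one of its surroundings, per the file headers, not normalized, the percent of saturated pixels per spot, and a spot flag, a score of the image software. No source used here gives the scanner settings. A value table deposited by the authors holds centred log2 values per spot, and a collapsed table deposited by the authors holds ranks and signed folds (scores) and p-values for pairs of RNAs, by a test that is not stated.

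Background was corrected by normexp (offset 50) on the mean foreground and median background, followed by within-array loess (span 0.3, with 4 iterations) and Aquantile across arrays in limma 3.58.1 under R 4.3.3 with statmod 1.5.0. A probe's level is the log2 mean of its 3 spots, and an RNA's level that of its 2 readings. Rat miRNAs above background in at least 5 of the 10 control readings were kept, 61 of 237; levels of the others are given where named. Loess, offset and Aquantile narrow differences between dim probes and between arrays, and loess also those between the 2 RNAs of an array. Tests were limma's moderated F over RNAs and its dye term, with array as a random block (consensus correlation -0.127), adjusted by Benjamini-Hochberg over the 61, and 1 exact permutation test. The test scripts were tested on simulated data: nearly all inserted changes were found, but both tests, and the dye term more than the RNA term, made more false calls than the threshold allows. Many false dye calls fell on the 3 brightest miRNAs, let-7c, let-7b and let-7a. The inserted changes were 2 on the log2 scale, without array effects. The 5 miRNAs called between RNAs ranged over at most 1.48 (log2), so sensitivity to changes of that size was not shown.

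Named were the 25 brightest miRNAs, those above background in all 10 readings, up to 4 brightest members of each marker or family list and members never above background, the calls or the 10 smallest p, the dye calls, and the extremes of SD. The RNAs, lists and tests were chosen with earlier results of these data known.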

Additional observations from a re-analysis of the deposited data

Results flagged for a closer look

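In 75 sets of 5 values, 1 per control RNA, the highest or lowest RNA was checked for a gap to its nearest neighbour above 0.71 of the whole range (Dixon's 95% critical value); chance gives such a gap in about 1 of 20 sets. It was found for 4 miRNAs. let-7c read 10.20 in control 3, against 10.96 ± 0.11 in the other RNAs (log2, SD, n = 4), a gap of 0.735 of the range. Its 2 readings were 10.69 in AF665 and 9.71 in AF546, the latter on array 2. There its net signal was 484, against 305 for control 2 in AF665, which had a level of 10.98. In AF665 control 3 was not the lowest, as control 5 read 10.34, so the low mean rests mainly on the AF546 reading of control 3. In that reading let-7c held 5.31% of the summed net signal of the rat probes, against 12.4% in the AF665 reading of control 2. The part of the normalization in the low value was not tested. let-7i read 8.51 in control 4, against 7.33 ± 0.049, a gap of 0.907. miR-195 read 8.19 in control 4, against 7.27 ± 0.12, a gap of 0.740. miR-99b read 6.79 in control 5, against 6.05 ± 0.099, a gap of 0.720; it was above background in neither reading of control 5, which were 6.09 in AF665 and 7.48 in AF546. Both let-7i and miR-195 lie high in control 4, the RNA that was highest for 23 of the 61 kept miRNAs, which were chosen partly by its own readings.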

How the results depend on the processing

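No paired analysis was possible because no groups of samples were compared; the 2 readings of an RNA were compared within RNAs throughout. Detection changed with the rule. At 1 background SD, 97 rat miRNAs were above background in at least 5 control readings, 47 in all and 61 in none; by the spot flag alone, an alternative chosen after seeing the data, these were 133, 77 and 46. The number in all readings was 13 at 3 background SD, 12 when all 3 spots were required and 33 over the 5 readings in AF665. Leaving out 1 RNA at a time gave 52 to 70 in at least 4 of 8, 21 to 25 in all and 114 to 130 in none. The difference in detected miRNAs, AF665 minus AF546, was -26.8 at 1 background SD and -14.6 when 1 spot sufficed, but 14.6 at 3 background SD and 12.2 when all 3 spots were required, and ran from -3.25 to 9.25 without 1 RNA. At 3 background SD the exact p was 0.0625, the smallest that 5 RNAs allow, so no setting could reach 0.05 and the p says nothing about stability. The order held at the top: 18 to 20 of the 20 brightest were shared with each alternative. The median rank correlation between RNAs, 0.788, was 0.664 without control 1 and control 3 together and 0.888 over the miRNAs above background in all readings. Without a filter the median SD was 0.0932. Of the ranks of single named miRNAs under the alternatives, 1257 moved by less than the spread between RNAs and 93 by more. The 5 calls between RNAs became 42 with median centring in place of loess, 47 without between-array normalization, 23 in the separate-channel fit over all 20 channels, 10 without a filter and 8 with a trended robust prior. They became 0 on the 4 control-only arrays, fitted without the array block, which could not be estimated there, 0 among the miRNAs above background in all readings and 0 over all array probes; without 1 RNA they ran from 0 (without control 4 or control 5) to 14 (without control 3). The dye call of miR-148b was 1 of 14 without a filter; 0 were called with median foreground, with median centring, on the control-only arrays and among the miRNAs in all readings, 2 over all array probes, and 0 to 1 without 1 RNA. The cause of these shifts was not tested. A low signal over background limits the 114 miRNAs never above it.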
